A study of Homo sapiens with 9 samples.

Results

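Replication-dependent histone genes encode the linker histone H1 and the core histones H2A, H2B, H3 and H4 that package newly made DNA. Their measured set here was the 39 genes in the count files, of 63677 gene IDs in all, that GENCODE 29 lists as protein-coding with a symbol beginning HIST1H, HIST2H, HIST3H or HIST4H. GENCODE 29 holds 71 such symbols, and the other 32 had no matching gene ID and were not analysed here. The 39 genes comprised 6 for H1, 10 for H2A, 10 for H2B, 7 for H3 and 6 for H4. By locus, 23 belonged to the HIST1 cluster of chromosome 6, 12 to HIST2 and 3 to HIST3 on chromosome 1, and 1 to HIST4 on chromosome 12.

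RNA came from 9 cultures of K562, an erythroleukaemia line derived from chronic myeloid leukaemia. They were the parental line with wild-type SRSF2 (1 library), 4 CRISPR clones with wild-type SRSF2 (W19, W33, W36 and W42; WT clones) and 4 CRISPR clones carrying the P95H substitution in SRSF2, a splicing factor (P9, P15, P22 and P38; P95H clones). With 1 library for each clone, p-values measure the spread between clones. How many SRSF2 alleles carry P95H, and if clones arose from separate edits, is not in the labels. Poly(A)+ RNA was selected before library preparation.

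Most transcripts of these genes do not end in a poly(A) tail. They are cut just after a short conserved hairpin, the histone stem-loop, which is bound by SLBP and recognised together with the U7 small nuclear ribonucleoprotein, and they accumulate in S phase and are degraded when DNA synthesis ends. A minority of transcripts pass the hairpin, use a downstream poly(A) signal and carry a tail. Counts in poly(A)-selected RNA therefore describe a residue of histone RNA, and not its total.

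The hairpin is shown because it marks the RNA class that the selection step should leave behind. In the GENCODE 29 transcripts, 25 of the 39 genes had a 3′ UTR, and in 21 of these a match to the histone stem-loop consensus was found within 100 bases after the stop codon, on the transcript strand. Of 18725 other protein-coding genes, 1 gene (0.00534%) held a match in this window, H2AFX, which encodes the histone variant H2A.X. For these other genes only transcripts with at least 100 bases after the stop codon were searched. The histone genes were searched at any 3′ UTR length, so the shares are not fully alike. A match is a description of letters, and the 14 genes with no annotated 3′ UTR could not be searched. The 5 versions found are given 5′ to 3′ from the transcript sequences (GRCh38), with the loop of 4 bases in capitals between the arms of the 6 bp stem.
12 genes, among them HIST1H2AC, HIST2H2BE and HIST3H2A: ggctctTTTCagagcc
HIST1H2BC, HIST1H2BD and HIST3H3: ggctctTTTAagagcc
HIST1H2AG: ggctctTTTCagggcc
HIST1H4H, HIST1H4J and HIST4H4: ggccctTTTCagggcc
HIST2H4A and HIST2H4B: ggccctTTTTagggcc

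All 5 H4 genes with a match had the ggccct stem, and no gene of another class had it. The 12-gene version was shared by 5 H2A, 5 H2B and 2 H3 genes. HIST1H2AG combined the 5′ arm of that version with the 3′ arm of the H4 version.

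Library depth was 24546255 to 35477328 reads assigned to genes. Levels are CPM, read counts scaled to a common library total. Before any further scaling the 39 genes summed to 1063 CPM in P38, the lowest library (95% exact binomial interval 1052 to 1075, counting error only, since PCR copies are not independent molecules), and to 1744 CPM in W33, the highest (1727 to 1760). All later values are CPM after TMM, a scaling for library composition. A floor of 3 counts corresponded to 0.0846 to 0.122 CPM. The erythroid genes HBG2 and GATA1 averaged 1904 and 263 CPM. Of 8 genes listed as markers of other cells, PECAM1 was at 0 and ALB at 4 counts in all, while PTPRC and EPCAM averaged 100.3 and 106 CPM. PTPRC was uneven, at 0.179 CPM in P22, 23.1 CPM in W33 and 106 to 193 CPM in the other clones. Summed, these 8 markers stood at 140 to 360.2 CPM in WT clones and 51.5 to 295 CPM in P95H clones. SRSF2 averaged 489 ± 27.7 CPM in WT and 499 ± 62.0 CPM in P95H clones (SD, n = 4). W33 stood apart from the other WT clones at 2246 of 20636 genes (edgeR adjusted p under 0.05), a count that was 527 without W19 and 0 without W36 or without W42. Values without W33 are given where they turn a direction.

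Residual histone RNA was concentrated in a few genes. Averaged over the 9 libraries, HIST1H2BK held 46.4% of the summed histone CPM, HIST1H1C 28.7% and HIST1H2AC 10.4%, together 85.5%. In all, 3 genes reached 100 CPM, 11 reached 10 CPM and 16 reached 1 CPM, while 8 had no read in any library and 5 had 1 to 9 reads over all libraries. By class, H2B genes summed to 56.0% of the histone CPM, H1 genes to 28.9% and H2A genes to 13.8%. H4 genes summed to 0.923% and H3 genes to 0.368%. These shares cover the measured genes only: the 32 unmatched symbols comprise 9 of H4, 8 of H3, 8 of H2B, 7 of H2A and 0 of H1, so the class sums cannot be read against each other as totals.

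**Figure D1:**
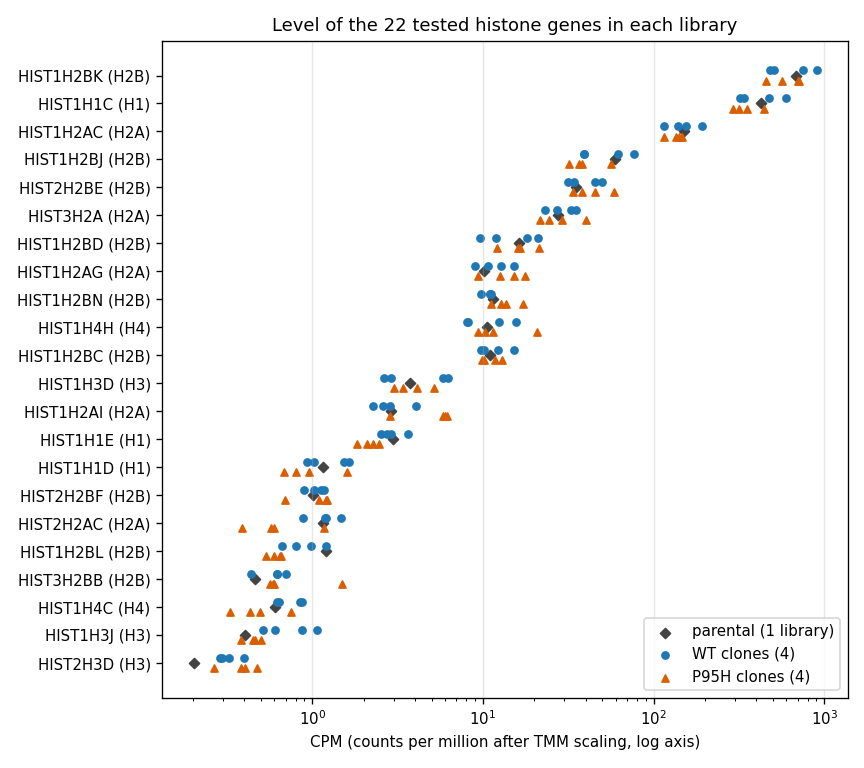
CPM after TMM scaling (log axis) of the 22 histone genes tested, ordered by mean, with 1 point for each library: the parental library (diamond), 4 WT clones (circles) and 4 P95H clones (triangles). HIST1H2BK, HIST1H1C and HIST1H2AC lie above 100 CPM in every library, and the points of the genotypes overlap at most genes.

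HIST1H2BK (ENSG00000197903), which encodes a core H2B, was the most abundant. Its level was 684 CPM in the parental library, 751, 902, 479 and 509.9 CPM in W19, W33, W36 and W42, and 564, 705, 713 and 453 CPM in P9, P15, P22 and P38. W33 was the highest library and P38 the lowest, and the genotypes overlapped. The means were 660.2 ± 202 CPM in WT and 609 ± 125 CPM in P95H clones (SD, n = 4), a log2 difference of -0.10 (SE 0.22, edgeR adjusted p = 0.878), which was 0.074 without W33 and 0.016 without P38. Of its 50-base stretches in the transcript set, 74.1% also occur in another gene, most of them in H2BFS, so the reads that aligned to 1 place cover only part of it.

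HIST1H1C (ENSG00000187837) encodes the linker histone H1.2, which binds the DNA between nucleosomes. It stood at 428 CPM in the parental library, 472, 594, 339 and 319 CPM in W19, W33, W36 and W42, and 442, 353, 292 and 315 CPM in P9, P15, P22 and P38. W33 was again the highest, while P22, among the highest for HIST1H2BK, was the lowest here. The ratio of HIST1H2BK to HIST1H1C was 1.27 in P9 and 2.44 in P22, and 1.41 to 1.60 in the WT clones. The means were 431 ± 128 CPM in WT and 351 ± 66.2 CPM in P95H clones, a log2 difference of -0.29 (SE 0.21, edgeR adjusted p = 0.60), and -0.10 without W33. No 50-base stretch of HIST1H1C was shared with another gene.

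HIST1H2AC (ENSG00000180573), a core H2A gene with a transcript model that runs 1128 bases past the hairpin, was the third. Its level was 149.96 CPM in the parental library, 191, 154, 116 and 138 CPM in W19, W33, W36 and W42, and 136, 114, 147 and 141 CPM in P9, P15, P22 and P38. W19 was highest and P15 lowest, with log2 -0.15 (SE 0.16, edgeR adjusted p = 0.740) between genotypes, which was -0.018 without W19, -0.075 without P15 and -0.26 without W36. The next genes were HIST1H2BJ at a mean of 48.7 CPM, HIST2H2BE at 41.3 CPM, HIST3H2A at 28.9 CPM and HIST1H2BD at 15.8 CPM. HIST1H2AG, HIST1H2BN, HIST1H4H and HIST1H2BC followed at 12.5, 12.1, 11.8 and 11.4 CPM. These 4 neighbours in the order overlapped across libraries.

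Per kilobase of exon in GENCODE 29 the same 4 genes led, with 1680 CPM per kb for HIST1H2BK, 615 for HIST1H1C, 85.8 for HIST1H2AC and 51.2 for HIST1H2BJ. HIST3H2A came next at 32.3 CPM per kb, then HIST2H2BE at 18.8 and HIST1H2BD at 18.2. The models of HIST1H2BK and HIST1H1C in this release hold no 3′ UTR, and the counts were made on release 75 models that may be longer, so these values per length are approximate.

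The genes differed in how their annotated transcripts end. In 14 genes at least 1 transcript ran 100 bases or more past the hairpin, and 8 of these reached 1 CPM, with a median of 6.25 CPM. In 7 genes the hairpin lay within 100 bases of the end of every transcript that held it. Of these, 2 reached 1 CPM, HIST1H2BD at 15.8 CPM and HIST1H2AI at 3.94 CPM, with a median of 0.236 CPM. Transcripts without a match did not enter this grouping, so a gene of this group may have others that end elsewhere. Of the 14 genes without an annotated 3′ UTR, 4 reached 1 CPM, and HIST1H2BK and HIST1H1C were among them, beside 4 genes at 0. The last 4 genes had a 3′ UTR without a hairpin match, with a median of 1.61 CPM. Of these, 2 reached 1 CPM, HIST1H2BJ at 48.7 CPM and HIST1H1E at 2.61 CPM. CPM here are not divided by length. Exon length was 834 to 5477 bases where a transcript ran past the hairpin and 373 to 871 bases where the hairpin lay near the end. The medians therefore do not compare levels per length. HIST1H2AI, HIST1H4J, HIST2H2AA3 and HIST2H2AA4, with the hairpin near the end, share 62.3 to 100% of their 50-base stretches with other genes. So do HIST2H3A, HIST2H3C, HIST2H4A and HIST2H4B of the longer models. These counts describe the annotation, which itself draws on RNA evidence.

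**Figure D2:**
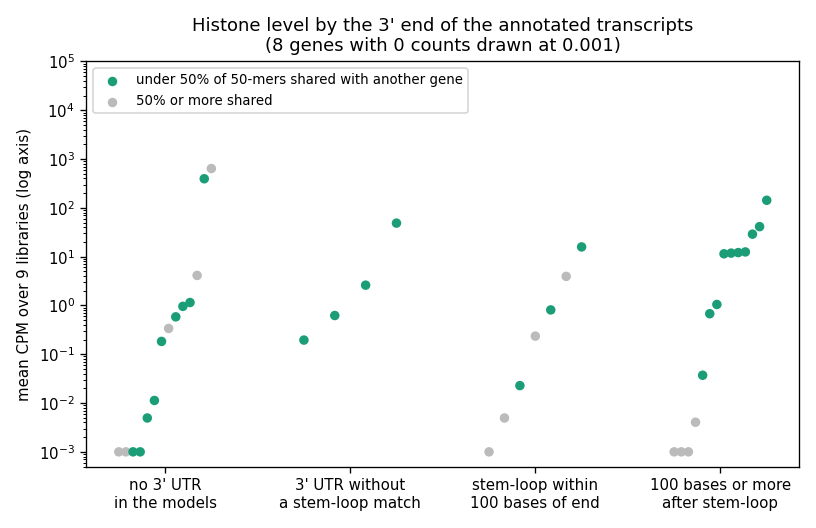
Mean CPM over 9 libraries (log axis) of each of the 39 genes, grouped by the end of its GENCODE 29 transcripts; grey points share 50% or more of their 50-base stretches with another gene, and the 8 genes at 0 counts are drawn at 0.001. The median is 6.25 CPM where a transcript runs 100 bases or more past the hairpin. It is 0.236 CPM where the hairpin lies near the end of every transcript that holds it. CPM are not divided by transcript length, which is mostly greater in the former group.

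Sequence shared with other genes limits what could be seen. In 13 genes at least 50% of the 50-base stretches also occurred in another gene's transcripts, and 6 of these 13 had 0 counts, against 2 of the other 26. Not all 13 are copies. At HIST1H3D, HIST1H2AD and HIST2H3PS2 the main sharer, AL031777.3 or AC239798.4, is annotated over the same exons. Such sharing need not mean a second place of alignment, and HIST1H3D had 1078 counts with 100% of its stretches shared. The 8 genes at 0 were HIST1H2AA, HIST1H2AD, HIST1H2BA, HIST2H2AA4, HIST2H3C, HIST2H3PS2, HIST2H4A and HIST2H4B. HIST2H4A and HIST2H4B share 97.5% and 97.2% of their stretches, mostly with each other, HIST2H3A and HIST2H3C 100%, and HIST2H2AA3 and HIST2H2AA4 100% and 97.1%. Reads with several alignments were not counted (5.06 to 6.06% of reads listed), so a 0 at these pairs does not show absence. HIST1H2AA and HIST1H2BA, known from testis, share no stretch with another gene and were at 0, so at the floor of 3 counts a level of up to 0.0846 to 0.122 CPM could not be detected.

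The summed level of all 39 genes differed more between WT clones than between genotypes. It was 1460 CPM in the parental library, 1638, 1904, 1101 and 1131 CPM in W19, W33, W36 and W42, and 1337, 1388, 1371 and 1074 CPM in P9, P15, P22 and P38. W19 and W33 lay above every P95H clone, W36 and W42 below 3 of the 4. The means were 1443 ± 394 CPM in WT and 1292 ± 147 CPM in P95H clones, and the WT mean was 1290 CPM without W33. In bulk poly(A)-selected RNA, fewer cells in S phase, less histone RNA per cell and a smaller share of it with a tail cannot be told apart.

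The classes followed this pattern unequally. H1 genes summed to 476, 598, 344 and 323 CPM in W19, W33, W36 and W42, and to 446, 356, 295 and 318 CPM in P9, P15, P22 and P38. H2B genes summed to 904, 1073, 582 and 619.6 CPM and to 697, 837, 857 and 558 CPM in the same order. Both classes were highest in W33, and both overlapped between genotypes. H2A genes varied least over the 8 clones, with a coefficient of variation of 12.3% against 26.3% for H1, 23.7% for H2B, 31.5% for H3 and 34.2% for H4. In P95H clones H2A genes summed to 183 ± 5.43 CPM, and in WT clones to 196 ± 33.4 CPM. H4 genes were highest in P22 at 21.7 CPM, while WT clones ranged from 8.94 to 16.7 CPM and P9, P15 and P38 from 9.80 to 12.1 CPM, nearly all of it from HIST1H4H.

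**Figure D3:**
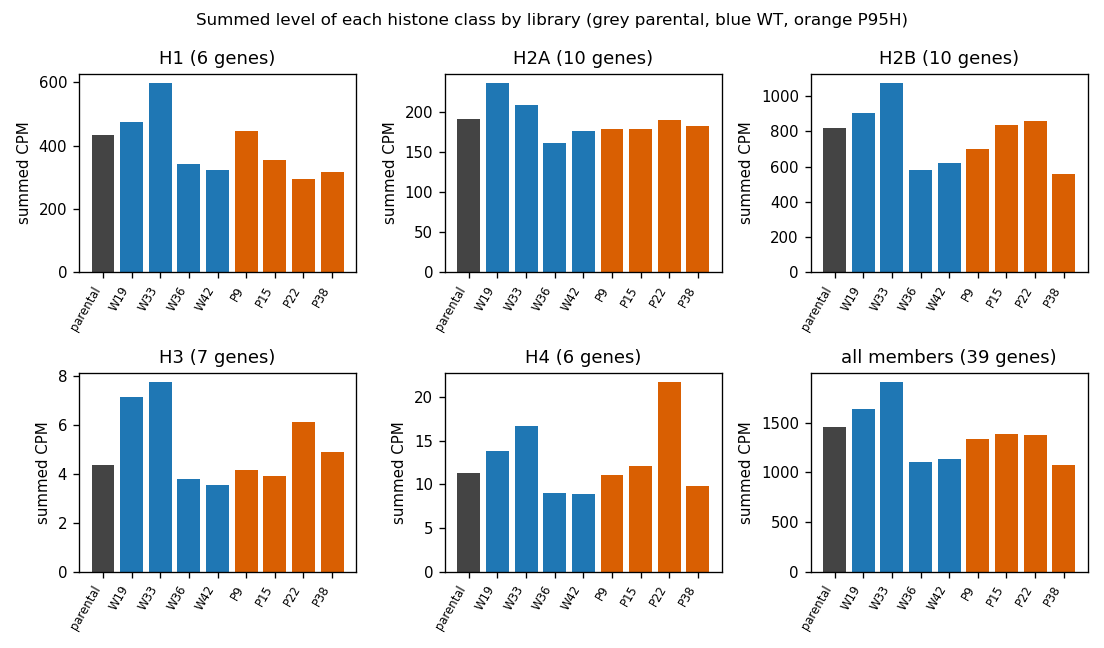
Summed CPM of the genes of each histone class, and of all 39 genes, with 1 bar for each library (grey parental, blue WT, orange P95H; bars start at 0). W33 is highest for H1, H2B, H3 and all genes, and P22 for H4.

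Between P95H and WT clones no histone gene passed the test. Of the 39 genes, 22 had enough counts to be tested, and edgeR called 0 of them at an adjusted p under 0.05, where it called 0.0% of all 18173 genes tested. At an unadjusted p under 0.05 there were 3 of 22, beside 11.7% of all genes. DESeq2 called 0 of 31 histone genes, against 0.801% of all genes, and had 3 at an unadjusted p under 0.05, beside 7.8% of all genes. In limma-voom 0 of 22 were called, against 0.325% of all genes, and 3 had an unadjusted p under 0.05, beside 17.1% of all genes. The log2 difference was below 0 at 13 of the 22 genes, beside 47.9% of all genes, with a median of -0.089 against 0.014 over all genes. That median moved with single clones: it was -0.0043 without W33 and -0.016 without W19, but -0.19 without W36 and -0.20 without P22. The smallest adjusted p among the 22 was 0.347 and the greatest log2 difference in size was 0.83, with SE from 0.16 to 0.38.

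**Figure D4:**
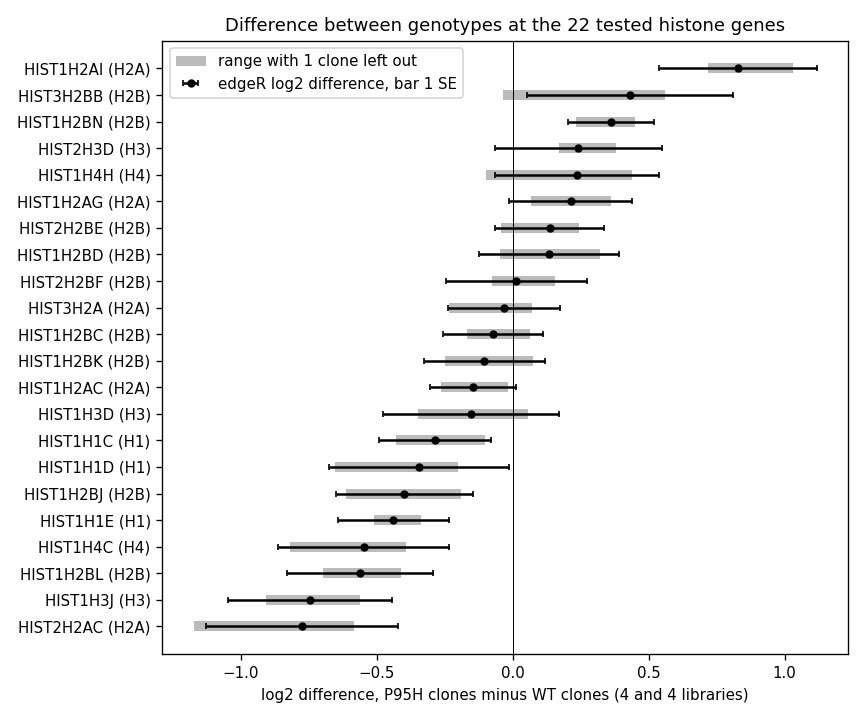
Log2 difference of P95H minus WT clones for the 22 tested genes, with 1 SE from edgeR (black bars) and the range of values when 1 of the 8 clones is left out (grey bars). HIST1H2AI is the highest at 0.83 and HIST2H2AC the lowest at -0.77, and adjusted p-values were 0.347 or more.

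At 4 of the 22 genes the ranges of the genotypes were separate, as they were at 8.57% of all genes tested (3.94% with higher and 4.63% with lower values in P95H clones). HIST1H2BN, a core H2B gene, was the 1 such gene with higher values in P95H clones, at 11.0, 11.1, 11.0 and 9.79 CPM in W19, W33, W36 and W42 against 13.6, 17.2, 12.7 and 11.2 CPM in P9, P15, P22 and P38. W33 and P38 were close, at 11.12 and 11.16 CPM. Its log2 difference was 0.36 (SE 0.16, edgeR adjusted p = 0.414), and 0.23 without P15. Exons of HIST1H2AK and HIST1H2AL overlap 7.25% of its exons, so some reads there may be shared.

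HIST1H1E, which encodes the linker histone H1.4, had lower values in all P95H clones. It stood at 2.91, 2.54, 3.62 and 2.76 CPM in W19, W33, W36 and W42 and at 1.84, 2.47, 2.27 and 2.09 CPM in P9, P15, P22 and P38. The closest clones were W33 and P15, and the log2 difference was -0.44 (SE 0.20, edgeR adjusted p = 0.437). HIST1H3J and HIST1H2BL, both under 1 CPM on average, were the other genes whose P95H values lay below all WT values. HIST1H3J averaged 0.766 ± 0.252 CPM in WT and 0.448 ± 0.0483 CPM in P95H clones, from 10 to 24 counts in each of the 8 clones, and HIST1H2AM overlaps 44.6% of its exons. At HIST1H2BL the closest values were 0.662 CPM in W42 and 0.657 CPM in P22.

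HIST1H2AI, a core H2A gene, had the greatest log2 difference. It stood at 4.04, 2.27, 2.60 and 2.87 CPM in W19, W33, W36 and W42 and at 6.13, 5.81, 6.03 and 2.86 CPM in P9, P15, P22 and P38. P9, P15 and P22 lay above every WT clone, and P38 lay among the WT clones. The log2 difference was 0.83 (SE 0.29, edgeR adjusted p = 0.347), and 0.72 to 1.03 with any 1 clone left out. It shares 62.3% of its 50-base stretches with other genes, most often HIST1H2AJ, which was not analysed here. In the parental library it was at 2.88 CPM, within the range of the WT clones.

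Single libraries set the direction at several genes. HIST1H4H, the 1 H4 gene above 1 CPM, stood at 20.6 CPM in P22 and at 9.33 to 11.4 CPM in P9, P15 and P38, against 8.08 to 15.6 CPM in WT clones, so that its log2 difference of 0.24 (SE 0.30, edgeR adjusted p = 0.781) was -0.10 without P22. HIST2H2BE, the most abundant HIST2 gene, stood at 58.5 CPM in P9 and 33.6 to 45.5 CPM in P15, P22 and P38, and its difference of 0.14 was -0.044 without P9. HIST1H2BD moved from 0.13 to -0.028 without P22 and to -0.048 without W36. HIST1H2BC moved from -0.073 to 0.062 without W19, and HIST1H3D from -0.15 to 0.054 without W33. HIST3H2A, at -0.033, was at 0.052 without W33, 0.0089 without W36, 0.028 without P9 and 0.071 without P22. HIST1H3D is the 1 H3 gene above 1 CPM, and its exons lie wholly within those of the non-coding gene AL031777.3 in GENCODE 29.

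HIST1H2BJ, the second H2B gene by level, was at 59.3 CPM in the parental library. Its clones stood at 61.5, 76.9, 38.95 and 39.1 CPM in W19, W33, W36 and W42 and at 31.8, 38.1, 56.2 and 36.3 CPM in P9, P15, P22 and P38. W33, W19 and P22 were high and P9 low, and the log2 difference of -0.40 (SE 0.25, edgeR adjusted p = 0.554) was -0.61 to -0.19 with 1 clone left out. HIST1H2AG, an H2A gene, was highest in P15 at 17.7 CPM and lowest in W36 at 9.04 CPM. Among the next genes of the rarer classes, HIST1H1D averaged 1.15 CPM, HIST1H4C 0.622 CPM, HIST2H3D 0.338 CPM and HIST1H4J 0.236 CPM, and all overlapped between genotypes.

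To set the parental culture against the WT clones, all 9 libraries were fitted together, on the assumption that its single library varies as clones do. Of 25 histone genes tested 0 were called by edgeR (0.00485% of all genes were). At an unadjusted p under 0.05 there were 0 of 25, beside 1.72% of all genes. DESeq2 called 0 of 31 histone genes, beside 7 of 35630 genes in all. It had 0 at an unadjusted p under 0.05, beside 1.08% of all genes. With so few calls over all genes, 0 calls are not particular to the histone genes. In simulated data this comparison recovered 4% of 2-fold and 70% of 4-fold changes. The simulation gave all genes the same spread and changed only genes above a minimum mean count. Its rates therefore need not hold for rare histone genes or for clones that stand apart. The summed level of 1460 CPM lay within the range of the WT clones, as did HIST1H2BK, HIST1H1C and HIST1H2AC. Of the 25 genes 8 were above and 17 below the WT mean, while 47.1% of all genes were above it. The histone genes above it numbered 10 without W33 and 5 without W42.

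Clone by clone, within a genotype, edgeR called 0 of 25 histone genes in each of 8 comparisons of 1 clone with the remaining 3, with 0 to 2 at an unadjusted p under 0.05. In data simulated in the same way for P22, with the same limits, such a comparison recovered 6% of 2-fold and 60% of 4-fold changes. At an unadjusted p under 0.05 stood 1 of 25 histone genes for W33, beside 29.8% of all genes, while in the other 7 comparisons the share of all genes was 0.591 to 8.55%. For W33, where 10.9% of all genes were called, the histone gene nearest to a call was HIST1H1C (log2 0.66, SE 0.26, edgeR adjusted p = 0.138). For P22, where 0.426% of all genes were called, it was HIST1H4H (log2 0.998, SE 0.36, edgeR adjusted p = 0.406). In the other 6 comparisons 0.0 to 0.0194% of all genes were called. HIST3H2BB in P9 stood at 1.49 CPM against 0.567 to 0.598 CPM in P15, P22 and P38 (log2 1.35, SE 0.41, edgeR adjusted p = 1). HIST1H2AI in P38 had log2 -1.07 (SE 0.38, edgeR adjusted p = 1).

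**Figure D5:**
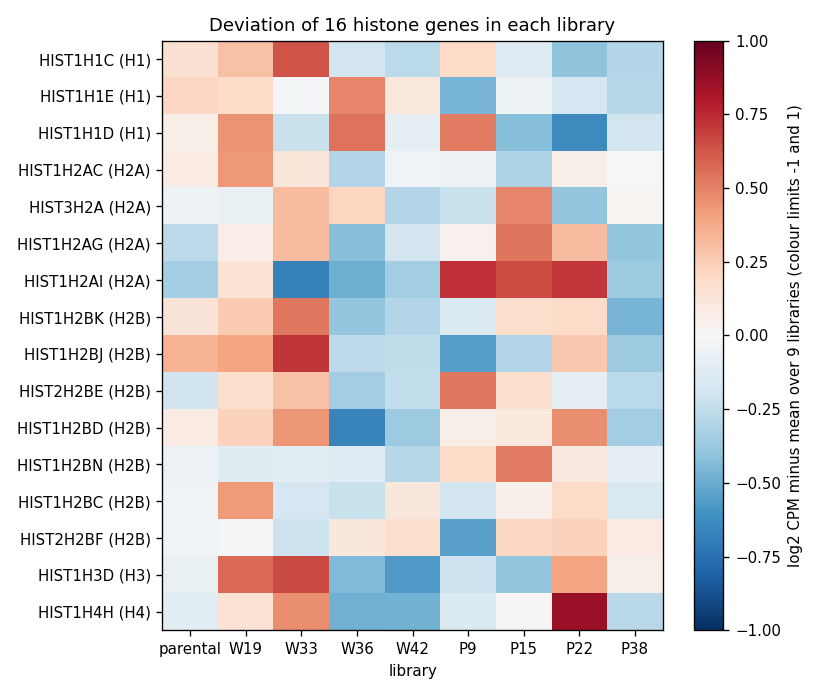
Deviation of log2 CPM from the mean over 9 libraries for the 16 histone genes of at least 1 CPM, ordered by class and level (columns are libraries; red higher, blue lower; colours end at -1 and 1). W33 is red at HIST1H1C, HIST1H2BK and HIST1H2BJ, P22 at HIST1H4H, and P9, P15 and P22 at HIST1H2AI.

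Not all of the genes varied together across libraries. Over 120 pairs of the 16 genes with at least 1 CPM, the median Pearson r of log2 CPM across the 9 libraries was 0.21, with 44 pairs below 0 and 3 above 0.8. The 3 pairs were HIST1H2BD with HIST1H4H (r = 0.90), HIST1H2BK with HIST1H2BD (0.90) and HIST1H2BK with HIST1H2BJ (0.81). Counting noise can lower r for the rarest of the 16 genes, such as HIST1H1D and HIST2H2BF with 302 and 281 counts over all libraries. Between abundant genes r also differed, at 0.65 for HIST1H2BK with HIST1H1C and -0.40 for HIST1H2AC with HIST3H2A. The points share libraries and their scaling, and r is given as a description. Outside the set, likeness to the histone sum was ranked over 11733 genes of at least 5 CPM. The highest were BIRC5 (r = 0.95), CRB2 (0.95), TBC1D22A (0.94), NR1H2 (0.94) and TFPT (0.93), over 9 libraries, where the median gene had r = 0.02. BIRC5 is on the list of G2 and M phase genes described below, but the sum of that list had r = -0.66 with the histone sum. The sum of the S phase list had r = 0.36.

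Promoters are shown for the 4 genes that lead in level and for HIST1H4H, the leading H4 gene, because their elements differ by class. RefSeq sequences of the 250 bases before the start (GRCh38.p14) were found for 37 of the 39 genes. Capitals mark every match, on either strand, to the octamer ATTTGCAT bound by POU2F1, the TATA box TATAAA, the CCAAT box CCAAT or the H1 box AAACACA, an element of H1 promoters.
HIST1H2BK, chr6:27146859-27147108, minus strand: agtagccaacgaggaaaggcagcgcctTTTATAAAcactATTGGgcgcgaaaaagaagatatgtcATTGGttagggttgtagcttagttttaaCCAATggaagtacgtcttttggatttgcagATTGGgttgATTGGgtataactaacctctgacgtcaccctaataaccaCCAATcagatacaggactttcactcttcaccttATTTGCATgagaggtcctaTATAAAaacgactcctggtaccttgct
HIST1H2AC, chr6:26123922-26124171, plus strand: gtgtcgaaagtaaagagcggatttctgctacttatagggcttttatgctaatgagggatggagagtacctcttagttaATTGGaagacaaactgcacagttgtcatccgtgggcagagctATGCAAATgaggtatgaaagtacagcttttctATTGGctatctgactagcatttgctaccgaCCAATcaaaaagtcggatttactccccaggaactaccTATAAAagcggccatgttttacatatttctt
HIST1H2BJ, chr6:27132796-27133045, minus strand: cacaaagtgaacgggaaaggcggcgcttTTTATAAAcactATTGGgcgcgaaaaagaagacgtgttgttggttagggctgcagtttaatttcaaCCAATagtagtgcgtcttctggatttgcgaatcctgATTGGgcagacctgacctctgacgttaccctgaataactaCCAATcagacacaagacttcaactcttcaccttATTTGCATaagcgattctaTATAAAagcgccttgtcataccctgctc
HIST1H1C, chr6:26056471-26056720, minus strand: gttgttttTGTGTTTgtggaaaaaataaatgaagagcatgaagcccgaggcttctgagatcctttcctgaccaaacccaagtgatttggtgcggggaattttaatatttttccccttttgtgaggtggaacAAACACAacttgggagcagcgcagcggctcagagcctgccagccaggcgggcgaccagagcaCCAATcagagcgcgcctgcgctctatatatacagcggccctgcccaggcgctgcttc
HIST1H4H, chr6:26285535-26285784, minus strand: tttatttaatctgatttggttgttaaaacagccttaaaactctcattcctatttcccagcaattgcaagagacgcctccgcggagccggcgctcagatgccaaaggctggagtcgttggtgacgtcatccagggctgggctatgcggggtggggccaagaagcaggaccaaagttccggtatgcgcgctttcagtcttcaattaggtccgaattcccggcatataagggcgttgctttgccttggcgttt

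HIST1H2BK, HIST1H2BJ and HIST1H2AC each held an octamer (at -46, -47 and -130 from the start), a TATA box or more and several CCAAT boxes. HIST1H2BD, whose level varied most like that of HIST1H2BK, held no octamer. The octamer was found in 6 of 10 H2B and 6 of 10 H2A promoters, 1 of 6 H3 promoters (HIST1H3D, whose window is that of HIST1H2AD) and 0 of 11 H1 and H4 promoters, and in 1.66% of 27305 promoters of all genes. Many of these are the same octamer read from both strands. It is shared by HIST1H2AC with HIST1H2BC, HIST1H2AG with HIST1H2BJ, HIST1H2AA with HIST1H2BA, and HIST2H2AC with HIST2H2BE. Windows of such neighbours are not independent for the other elements either. The H1 box was found in all 6 H1 promoters and in 0 of the other 31, against 4.95% of all promoters. The CCAAT box was found in all 32 promoters of H1, H2A, H2B and H3 genes but in 0 of 5 H4 promoters, against 33.04%, and the TATA box in 25 of 37 against 11.1%. A match is a description and not a site of binding. HIST1H4H, with none of the 4, averaged 11.8 CPM in poly(A)-selected RNA. A link between these elements and the levels was not tested.

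Histone genes outside the replication-dependent set mostly give polyadenylated RNA, and the fixed list of them includes H2AFX, the gene with a hairpin match. Of 11 fixed genes, 9 were tested and edgeR called 0 (0.0% of all genes), with 4 above and 5 below 0 (median log2 -0.07). H2AFZ, which encodes the variant H2A.Z, averaged 585 CPM and H3F3B, an H3.3 gene, 481 CPM, levels in the range of HIST1H2BK and HIST1H1C. H3F3A, the other H3.3 gene, had lower values in all P95H clones, at 25.8, 37.2, 32.9 and 27.3 CPM in W19, W33, W36 and W42 against 24.5, 20.4, 22.03 and 20.8 CPM in P9, P15, P22 and P38 (log2 -0.48, SE 0.14, edgeR adjusted p = 0.320). The 11 genes summed to 1478 to 2064 CPM over the libraries, with W33 the highest and P9 the lowest.

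Genes that act on histone RNA, on their transcription or on histone proteins went both ways between genotypes, with 0 called. Since edgeR called 0.0% of all genes tested, 0 calls are not particular to any list. Of 30 genes of 3′ end processing and turnover 0 were called, 15 lay above and 15 below 0, and the median log2 difference was -0.0026. SLBP, the stem-loop binding protein, stood at 169 ± 7.81 CPM in WT and 175 ± 21.2 CPM in P95H clones (log2 0.06, SE 0.11, edgeR adjusted p = 0.844). LSM10, a component of the U7 particle, stood at 57.2 ± 15.2 against 42.1 ± 6.48 CPM (log2 -0.43, SE 0.18, edgeR adjusted p = 0.413), and its highest library was W33 at 79.6 CPM. SNRPG, a core Sm protein gene, had log2 -0.42 (SE 0.16, edgeR adjusted p = 0.359), while CSTF2T, a cleavage factor gene, had log2 0.26 (SE 0.11, edgeR adjusted p = 0.415) with separate ranges. Of the histone locus body and transcription genes 11 of 12 were tested and 0 called (7 above 0, median 0.09), and of 16 histone chaperones 0 were called (6 above 0, median -0.03). Ranges were separate at YY1 (log2 0.26), GTF3C2 (0.18) and NAP1L1 (0.29), higher in P95H clones, and at NASP (-0.21), lower in them. Over all genes tested, ranges were separate at 8.57%. HAT1 had log2 -0.38 (SE 0.13, edgeR adjusted p = 0.335).

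Cell cycle genes and other RNAs without a tail were measured beside the histone levels. Of 34 S phase genes tested 0 were called (0.0% of all genes), 24 lay above 0 and the median was 0.07. Of 20 genes of G2 and M phase 0 were called, 10 above 0, with a median of 0.02. The S phase genes summed to 5798 to 6651 CPM over the libraries, highest in P22 and lowest in W19. Of 21 RNAs that lack a tail, 13 matched a single gene ID, and they summed to 12.2 CPM in the parental library, 9.92 to 11.9 CPM in WT and 8.37 to 16.5 CPM in P95H clones. Their sum was highest in P38 and lowest in P15 at 8.37 CPM, with W33 at 9.92 CPM. SNORA73B made up most of it, at 8.18 CPM on average, and stood at 13.0 CPM in P38 and 4.71 CPM in W33. The order of the sums therefore rests largely on this 1 gene. RMRP, the RNA of RNase MRP, went the other way, at 2.76 CPM in W33 and 0.494 to 1.47 CPM in the other clones. The part of these RNAs in the histone levels was not tested.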

How the data were processed

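Poly(A)+ RNA of 9 K562 cultures was measured. The authors deposited unnormalized read counts for each Ensembl gene ID. The tools named in the submitters' processing notes are TopHat2 2.0.4, HTSeq 0.6.1p1 and bcl2fastq, with build GRCh37. For strand and overlaps, HTSeq's settings are not stated in the labels. The summary lines of each file were left out of library sizes: reads in no gene (47.6 to 49.1%), ambiguous reads (2.23 to 2.55%) and reads aligned more than once. Symbols, exons and transcripts came from GENCODE 29 (GRCh38) by gene ID, promoters from RefSeq (GRCh38.p14).

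The main test was edgeR 4.0.16 (R 4.3.3) with filterByExpr, TMM, a robust quasi-likelihood fit and p-values adjusted by Benjamini-Hochberg across every tested gene, at a threshold of 0.05. CPM were computed on TMM-scaled library sizes, and log2 CPM used a prior count of 2. DESeq2 1.42.0 and limma 3.58.1 (voom) were alternatives, beside other scalings and filters, a 3-group fit and each clone left out. On simulated counts for P95H against WT (18391 genes), 46% of 2-fold and 99% of 4-fold changes were recovered, far more than in comparisons of 1 library. Replicates differed by far more than sampling noise (mean chi-square per degree of freedom 10.0 or more in every pair within a genotype). No replicate numbers recur between genotypes, so no pairing was made. P-values measure the spread between clones.

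The members and lists were chosen with earlier results of these data known. Genes named are the 12 highest in mean CPM, the 3 highest per class, those called in any test, those of at least 1 CPM whose genotypes did not overlap or with a library far out, and those at 0; HIST1H3J and HIST1H2BL (non-overlapping under 1 CPM), HIST2H2AC, HIST3H2BB, H3F3A, LSM10, SNRPG, CSTF2T, YY1, GTF3C2, NAP1L1, NASP, HAT1 and RMRP were singled out after their values were seen.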

Additional observations from a re-analysis of the deposited data

Results flagged for a closer look

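In 3 of 44 groups of 4 clones examined (16 genes of at least 1 CPM, 5 classes and the sum of all genes, in each genotype), 1 library lay far from the other 3; chance gives about 1 in 20. HIST1H2AI was at 2.86 CPM in P38 and at 5.81 to 6.13 CPM in P9, P15 and P22. HIST1H2BN was at 9.79 CPM in W42 and at 11.0 to 11.1 CPM in the other WT clones. The summed level of all 39 genes was 1074 CPM in P38 and 1337 to 1388 CPM in P9, P15 and P22.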

How the results depend on the processing

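No histone gene was called under any alternative run: all 57 recounts over the 10 comparisons (P95H, parental and single clones) gave 0, leaving 1 clone out included (0 to 0). For the 18 named genes tested, 304 of 318 log2 differences of P95H against WT kept their direction over 18 alternatives, and 11 genes kept it in all; the smallest adjusted p over these alternatives was 0.156. Over all genes the same comparison gave 0 calls in edgeR, 2 with no filter, 5 without W33 and P22, 1 without W19, 59 in limma-voom and 274 in DESeq2. With 1 clone left out, the log2 difference ranged from -0.17 to 0.062 for HIST1H2BC, -0.048 to 0.32 for HIST1H2BD, -0.25 to 0.074 for HIST1H2BK, -0.35 to 0.054 for HIST1H3D, -0.10 to 0.44 for HIST1H4H, -0.044 to 0.24 for HIST2H2BE and -0.24 to 0.071 for HIST3H2A. HIST1H3D was at 0.085 in limma-voom, and HIST3H2A at 0.17 without W33 and P22; the cause was not tested. Without the 13 genes that share at least 50% of their 50-base stretches, HIST1H2BK among them, the mean summed level fell to 135 CPM in WT and 128 CPM in P95H clones for H2B, 0.794 and 0.472 CPM for H3 and 775 and 674 CPM for all genes, since fewer genes are summed. Among the genes left out was HIST1H3D, the leading H3 gene, whose stretches are shared with AL031777.3 at the same locus and not only with copies. RLE scaling and unscaled shares moved no class mean by more than 1 SD. No paired analysis was possible because the clone numbers of the genotypes do not recur. Depth limits genes under about 1 CPM, and most 2-fold changes at 4 against 4 clones were missed in simulated data.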

Other observations

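Of 19 histone pseudogenes with a gene ID in the counts, 7 had no read and 2 reached 1 CPM on average. HIST2H2BC, annotated as a transcribed unprocessed pseudogene, stood at 23.2 ± 3.72 CPM in WT and 25.2 ± 2.22 CPM in P95H clones (SD, n = 4; log2 0.13, SE 0.15, edgeR adjusted p = 0.762). HIST1H1PS1 stood at 1.01 ± 0.288 CPM in WT and 1.45 ± 0.493 CPM in P95H clones (log2 0.53, SE 0.33, edgeR adjusted p = 0.555). Both were named after their values were seen.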
